A study of Caenorhabditis elegans with 104 samples.

Results

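The glutathione S-transferase genes of Caenorhabditis elegans are described here, taken as every gene whose public name starts with gst-, gsto- or gstk- and a number. The RefSeq gene table names 49 such genes, and 48 were measured out of 18889 genes in all: 43 gst, 3 gsto and 2 gstk genes. The remaining one, gst-34, was not analysed here. Each value is the mean over the probes of a gene, and 41 of the 48 genes had 1 probe.

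Single wild-type (N2) worms were hybridised to 2-colour arrays, 1 worm per array, at 7 ages. The youngest group held 13 worms (day 4), the groups of days 8, 12, 14 and 16 held 17 worms apiece, and 14 worms aged 20 days and 9 aged 24 days were measured. All grew on OP50 bacteria from 1 timed egg lay, with no treatment and no other genotype. At each age 20 worms were picked, and worms whose amplified RNA failed quality control were discarded before hybridisation. The arrays thus cover unequal parts of the worms picked, fewest at day 24. The part of this selection in the results was not tested. The Cy3 channel of every array held a pool of 15 N2 worms aged 4 days, so a ratio shows a worm against that pool and cannot rank one gene's abundance against another's. Each age was picked from 1 cohort at 1 time, so age and harvest cannot be told apart, and each test rests on worm-to-worm spread inside that cohort.

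Values are read as log2 of worm over pool, where 1 unit is a factor of 2. Scale and direction are not stated for the table. Red over green is the usual direction, the one the dye labels and the comparison with young worms make likely, and the opposite sign would turn every rise into a fall. Missing probes numbered 9 to 464 per array of 22490, and array medians lay between -0.034 and 0.009. Precision is limited by how many arrays each age has and by how noisy they are. The array weights of limma, lower where an array departs more from its age group, had means of 0.715 at day 4, 0.874 at day 8 and 1.2 at day 24. Day 4, the reference age, thus had the lowest mean weight, and the reported fits weighted all arrays equally. Whole worms were used, so fewer cells of a type and less RNA per cell cannot be told apart.

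Glutathione S-transferases join the tripeptide glutathione to electrophilic compounds, which makes these more soluble and lets transporters of the MRP family export the conjugates. Some also act as peroxidases or isomerases. In C. elegans the family is large and many members sit side by side in the genome. Much of their inducible expression is in the intestine and depends on the transcription factor SKN-1, the worm counterpart of Nrf2, and gst-4 is the standard reporter of that response. GST-10 and several related enzymes conjugate 4-hydroxynonenal, an aldehyde made when lipids are oxidised.

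Over the 7 ages, 8 of the 48 genes rose and 9 fell in a linear fit over age in days, where a call means a limma p below 0.05 after Benjamini-Hochberg adjustment across all genes. That is 16.7% and 18.8% of the members, beside 13.7% and 14.2% of all genes, with 27.8% of all genes called in either direction, so rises and falls stood side by side in the family much as they did in the whole table. The median slope of the members was -0.00074 log2 units per day, and that of all genes was 0.000176. Before adjustment, 23 of the 48, the called ones included, had a p under 0.05. In all, 18 differed between ages by limma's moderated F test (37.5%, beside 33% of all genes). Counting slope, F test, each age against day 4 and day 12 against day 8, 23 members were called at least once and 25 never. Neither this count nor the unadjusted one was taken over all genes, so they cannot be compared with the whole table.

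**Figure D1:**
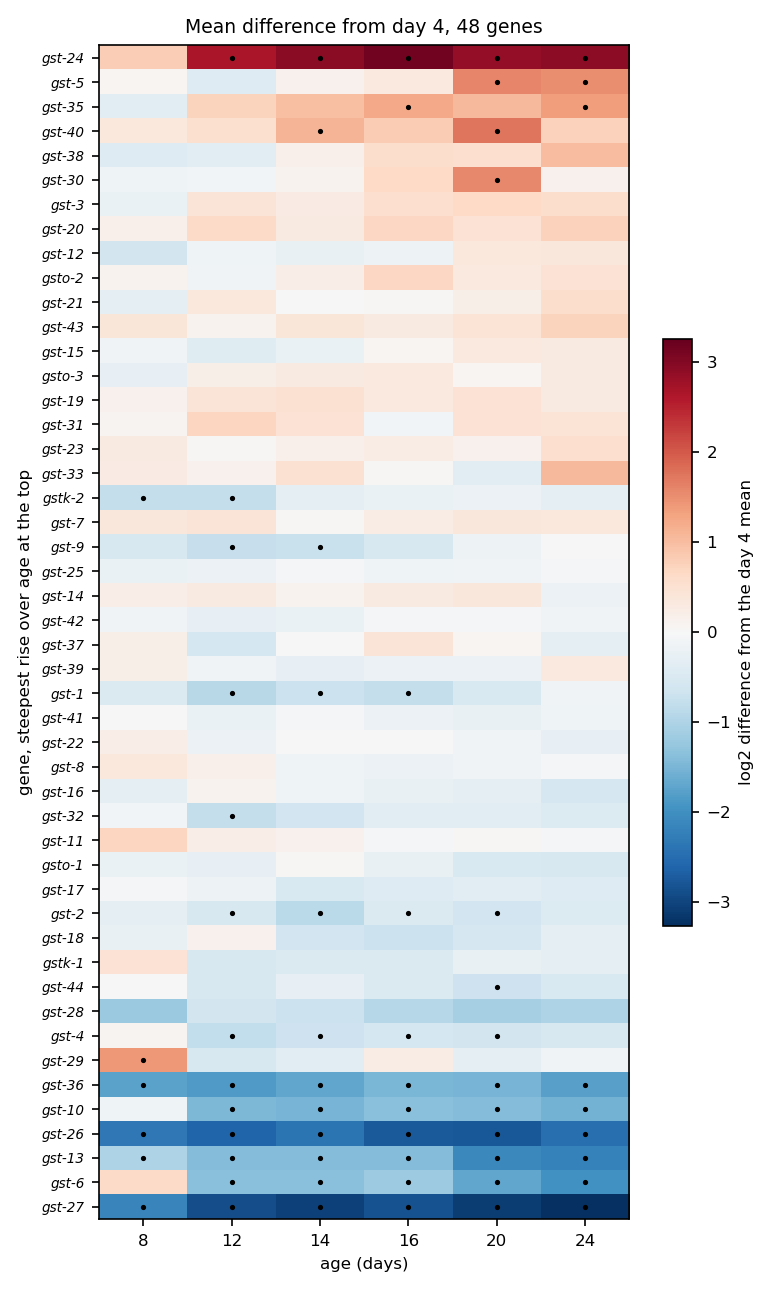
Mean difference from the day 4 worms in log2 units (colour) for the 48 genes (rows, steepest rise at the top) at the 6 later ages (columns). Black dots mark differences called at an adjusted p under 0.05; gst-24 is the only gene called higher at 5 ages, and gst-26, gst-27, gst-13 and gst-36 are lower at all 6.

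The largest rise was that of gst-24 (F37B1.1, chromosome II), one of the enzymes linked to 4-hydroxynonenal conjugation. At day 4 its lowest, median and highest worm stood at -1.21, -0.13 and 1.69. At day 8 these were -0.80, 0.54 and 4.40. At day 12 they were 0.82, 2.89 and 4.61, and at day 24 1.86, 3.18 and 4.41. The day 8 worms thus largely overlapped the youngest ones, 3 of 17 lying above the highest day 4 worm, while 13 of 17 did at day 12 and all 9 did at day 24. The difference from day 4 was 0.81 ± 0.39 at day 8 (SE, n = 17 and 13, limma adjusted p = 0.19), 2.66 ± 0.39 at day 12 (adjusted p = 8.6e-08) and 2.92 ± 0.46 at day 24 (adjusted p = 9.49e-07). From day 8 to day 12 alone gst-24 rose by 1.85 ± 0.37 (adjusted p = 0.000121). No later step between successive ages was called. Means were 2.79 ± 1.23 at day 12, 3.08 ± 0.82 at day 14, 3.01 ± 1.22 at day 20 and 3.06 ± 0.81 at day 24 (SD). Its slope of 0.166 ± 0.0208 per day (SE, adjusted p = 2.83e-10) was not spread evenly over life. With days 12 to 24 alone the slope was 0.0131 (adjusted p = 0.89).

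A later rise was that of gst-5 (R03D7.6, chromosome II), also linked to 4-hydroxynonenal. Mean values of 0.24 ± 0.81 (day 4), -0.17 ± 0.92 (day 12) and 0.57 ± 1.01 (day 16) were followed by 1.83 ± 1.27 (day 20) and 1.75 ± 1.64 (day 24; all SD). The day 20 worms ranged from -0.08 to 3.82, and 9 of 14 lay above the highest day 4 worm. At day 24 this held for 5 of 9 worms, which spread from -0.26 to 4.43. Against day 4 the gene was higher by 1.59 ± 0.41 at day 20 (SE, limma adjusted p = 0.00239) and by 1.51 ± 0.47 at day 24 (adjusted p = 0.0146). Without the 6 arrays that limma weighted under 0.6, 2 of them at day 4, the day 24 difference was 1.31 and not called (adjusted p = 0.0514). The step from day 16 to day 20 was 1.26 ± 0.39 and did not pass the correction (adjusted p = 0.192), and 0 of 48 members did for any step between successive ages after day 12. Over all genes, 0.254% were called from day 16 to day 20 (0.143% higher), 0.0159% from day 14 to day 16 and 0% in the remaining steps. In the 4 steps from day 12 on, 1, 1, 4 and 5 members had an unadjusted p under 0.05, counts that were not taken over all genes. Over days 12 to 24 alone gst-5 had a slope of 0.184 per day (adjusted p = 0.000223), larger than its 0.0903 over all ages.

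Another 6 genes rose over the slope with smaller or less even changes. The gene gst-35 rose by 0.0884 ± 0.0185 per day (SE, limma adjusted p = 7.71e-05), with means of -0.35 ± 1.23 at day 8, 0.71 ± 1.04 at day 12 and 1.36 ± 1.00 at day 24 (SD). Its step from day 8 to day 12 was 1.06 ± 0.36 (adjusted p = 0.0325). The genes gst-40 and gst-30 stood highest at day 20, at 1.68 ± 1.21 and 1.42 ± 1.16 (SD, n = 14), and lower again at day 24, at 0.69 ± 0.86 and -0.03 ± 0.89 (n = 9). That last difference was not called for either gene (limma adjusted p = 0.9999 for both). The slopes of gst-38 (0.0647 per day), gst-3 (0.0438) and gst-20 (0.0333) were shallower, and none of these 3 was called at any age against day 4. By the F test gst-38 was called (limma adjusted p = 0.0416), and gst-3 (0.0936) and gst-20 (0.203) were not.

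**Figure D2:**
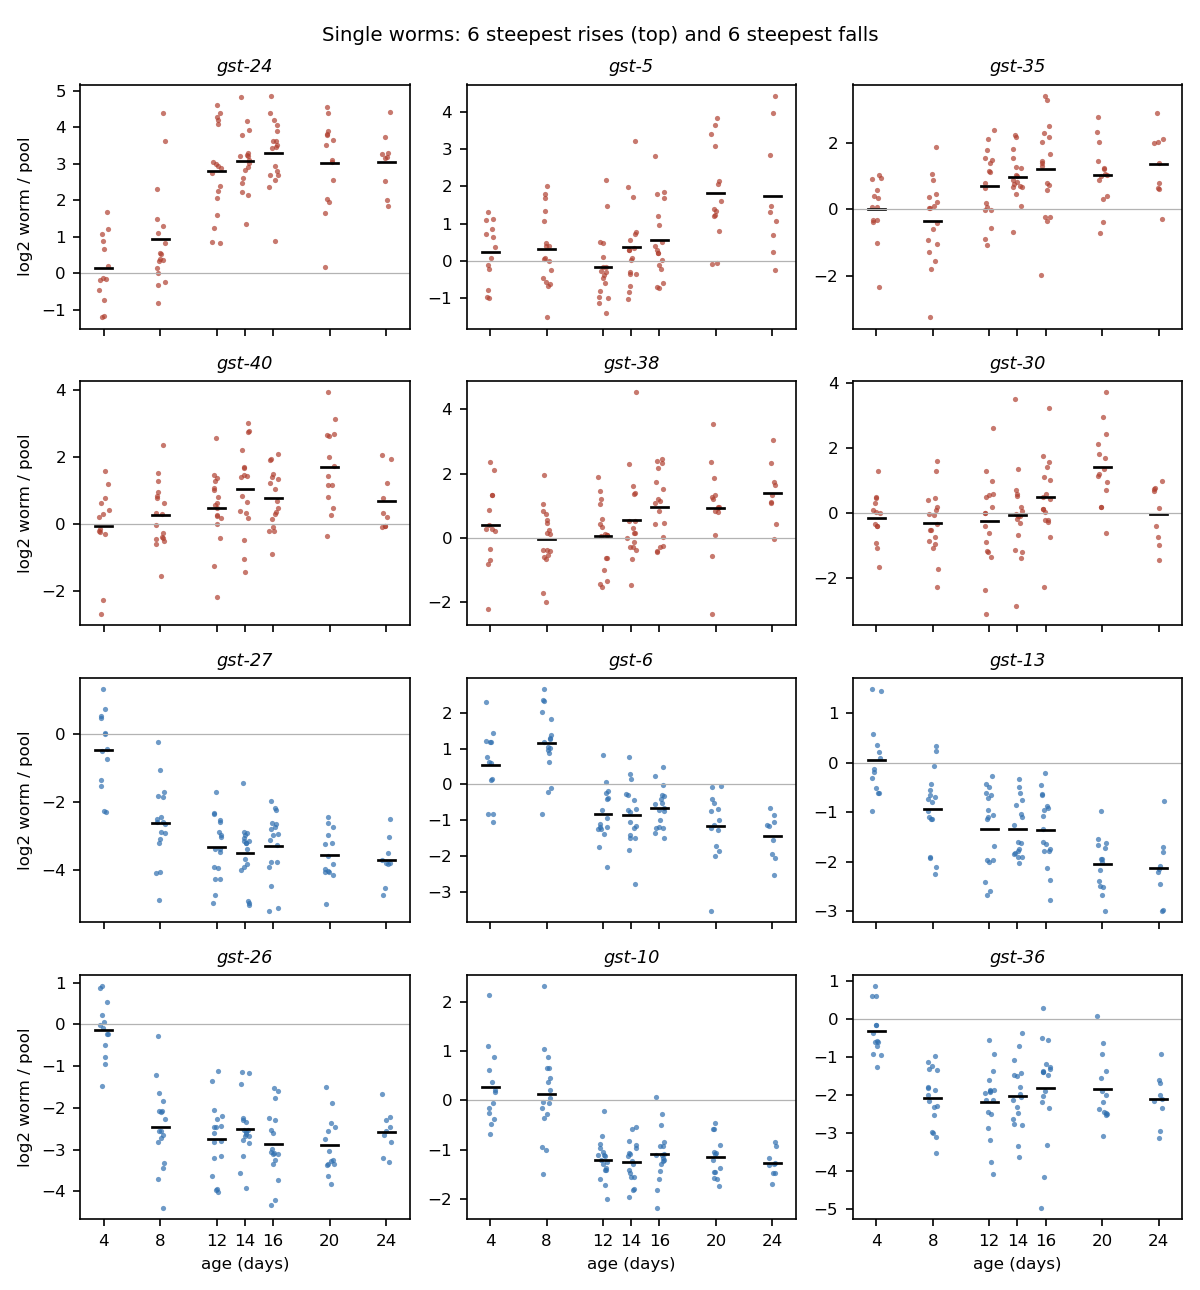
Log2 ratio of worm to pool (vertical) against age in days (horizontal) for the 6 steepest rises (red) and the 6 steepest falls (blue) among called genes. Each point is 1 worm and each bar the mean of its age; gst-24 and gst-10 step between days 8 and 12, whereas gst-26, gst-27 and gst-36 have fallen by day 8.

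The falls differed in their timing. By day 8, gst-26 (Y53F4B.29), gst-27 (Y53F4B.30), gst-36 (R07B1.4) and gst-13 (T26C5.1) were already lower than at day 4, and they stayed lower at all 6 later ages. The first 2 are next to each other on chromosome II. No biochemical role is given for these 4 genes here. In the same comparison of day 8 with day 4, 0 muscle markers rose and 4 of 10 fell (40%, beside 6.14% of all genes), led by the troponin I gene unc-27 (-2.45). Of 11 intestinal markers, ftn-1 (4.24) and ges-1 (1.09) rose and act-5 (-3.04) and pept-1 (-1.37) fell. Of the germline markers 2 rose and 0 fell, of the hypodermal ones 2 rose and 2 fell, and of the neuronal ones 2 rose and 0 fell. Rises were thus 18.2% of the intestinal, 16.7% of the germline, 20% of the hypodermal and 20% of the neuronal markers, beside 5.21% of all genes. Falls were 18.2% of the intestinal and 20% of the hypodermal markers, beside 6.14%. The part of these markers in the falls was not tested.

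For gst-26, the lowest, median and highest worm were -1.48, -0.08 and 0.92 at day 4 and -4.40, -2.56 and -0.27 at day 8. At day 24 the median was -2.55 and the highest -1.66. At day 8, 15 of 17 worms lay below the lowest day 4 worm, and at days 16, 20 and 24 every worm did. The difference from day 4 was -2.33 ± 0.29 at day 8 (SE, n = 17 and 13, limma adjusted p = 4.3e-10) and -2.45 ± 0.34 at day 24 (n = 9 and 13, adjusted p = 2.76e-08). After day 8 little further change was seen, and the slope of -0.102 per day shrank to -0.0177 without day 4 (adjusted p = 0.534). Both probes of the gene fell, by -0.115 and -0.0895 per day.

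For gst-27, the 3 values were -2.29, -0.44 and 1.33 at day 4, -4.89, -2.59 and -0.23 at day 8, and -4.76, -3.79 and -2.51 at day 24. The groups overlapped at day 8, when 12 of 17 worms lay below all day 4 worms, and no longer overlapped at days 20 and 24. The difference from day 4 grew from -2.16 ± 0.35 at day 8 (SE, limma adjusted p = 1.33e-06) to -3.26 ± 0.41 at day 24 (adjusted p = 1.5e-09), the largest fall in the family at that age. Its slope was -0.139 ± 0.0187 per day (adjusted p = 2.22e-09), and -0.0276 over days 12 to 24 alone (adjusted p = 0.644).

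The fall of gst-36 was complete by day 8, at -1.75 ± 0.33 against day 4 (SE, limma adjusted p = 5.77e-05), with worms from -3.52 to -0.98 against -1.28 to 0.86 at day 4. Its slope of -0.053 per day turned to 0.0116 without day 4 (adjusted p = 0.757) and was not called with array weights (-0.0341, adjusted p = 0.123). By contrast, gst-13 went on falling. Its difference from day 4 was -0.999 ± 0.257 at day 8 (SE, limma adjusted p = 0.00400) and -2.20 ± 0.30 at day 24 (adjusted p = 2.36e-08). Medians went from -0.14 (day 4) through -0.79 (day 8) and -1.10 (day 12) to -1.98 (day 20) and -2.14 (day 24), and at day 20 all 14 worms lay below the lowest day 4 worm. It was the only member that fell over days 12 to 24 alone (-0.0804 per day, adjusted p = 0.00749).

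Other members fell between days 8 and 12. From day 8 to day 12, 2 members rose (4.17%) and 5 fell (10.4%), beside 7.76% and 7.83% of all genes and 15.6% in both directions. The genes that fell were gst-6, gst-29, gst-10, gstk-1 and gst-4, and those that rose were gst-24 and gst-35.

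The gene gst-6 (F11G11.3), linked to 4-hydroxynonenal conjugation, had medians of 0.62 (day 4), 1.18 (day 8), -1.01 (day 12) and -1.16 (day 24). At day 12, when 16 worms had a value, 9 of them lay below the lowest of the 17 day 8 worms. The step was -1.99 ± 0.29 (SE, limma adjusted p = 1.33e-07). At day 24 the range was -2.54 to -0.66, and 7 of 9 worms lay below the lowest day 4 worm. For gst-10 (Y45G12C.2, chromosome V), medians were 0.17, 0.05, -1.21 and -1.29 at days 4, 8, 12 and 24, with a step from day 8 to day 12 of -1.34 ± 0.20 (adjusted p = 3.79e-07). At day 12, 16 of 17 worms lay below the lowest day 4 worm (-0.68), and at day 24 all 9 did. The spread between worms was also narrower later, with an SD of 0.77 at day 4, 0.89 at day 8 and 0.27 at day 24, although the slope of that spread was not called (adjusted p = 0.0539).

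The SKN-1 reporter gene gst-4 (K08F4.7, chromosome IV) fell by a smaller amount. Its worms ranged from -0.92 to 0.42 at day 4 (median -0.30), from -1.73 to 2.02 at day 8 (median -0.19), from -2.98 to -0.20 at day 12 (median -1.05) and from -1.14 to -0.13 at day 24 (median -0.79). Groups overlapped throughout, and 9 of 17 worms at day 12 lay below every day 4 worm. The step from day 8 to day 12 was -0.90 ± 0.18 (SE, limma adjusted p = 0.000107). Against day 4 gst-4 was called lower at days 12, 14, 16 and 20 but not at day 24, when the mean was -0.75 ± 0.32 (SD, n = 9). Its slope of -0.0362 per day was not called without day 4 (adjusted p = 0.0883) or without day 8 (adjusted p = 0.0538), and its sign turned over days 12 to 24 alone (0.0208, adjusted p = 0.405).

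The remaining called falls, gst-2 and gst-44, were called neither by day 8 nor from day 8 to day 12. Against day 4, gst-2 was called lower at days 12, 14, 16 and 20, with its largest difference at day 14 (-0.89 ± 0.17, SE, limma adjusted p = 3.07e-05), and gst-44 at day 20 only (-0.69 ± 0.24, adjusted p = 0.0319). The F test called gst-2 (adjusted p = 0.0006075) and not gst-44 (adjusted p = 0.0576).

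A brief rise at day 8 marked gst-29 (Y53F4B.32), a neighbour of gst-26 and gst-27. Its median went from -0.29 (day 4) to 1.45 (day 8) and back to -0.53 (day 12), with day 8 worms from -0.44 to 4.15 and 8 of 17 above every day 4 worm. It was higher at day 8 than at day 4 by 1.41 ± 0.36 (SE, limma adjusted p = 0.00366) and lower again at day 12 than at day 8, at -1.93 ± 0.34 (adjusted p = 1.55e-05); both differences use the day 8 worms. The kappa-class gene gstk-1 (ZK1320.1) had means of -0.01 ± 0.61, 0.45 ± 1.07 and -0.52 ± 0.74 at days 4, 8 and 12 (SD), and only the step from day 8 to day 12 was called (-0.97 ± 0.27, SE, adjusted p = 0.00684). Its relative gstk-2 was lower than at day 4 at days 8 and 12 (-0.79 ± 0.28 and -0.78 ± 0.28), with adjusted p of 0.0477 and 0.0277.

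A dip in mid life was seen for gst-1 (R107.7, chromosome III), a pi-class enzyme. Medians were -0.04 at day 4, -0.93 at day 12, -0.72 at day 16 and -0.25 at day 24, and all 17 day 12 worms lay below the pool (-1.30 to -0.21). The difference from day 4 was -0.90 ± 0.22 at day 12 (SE, limma adjusted p = 0.000812). Its slope over all ages was -0.0089 per day (adjusted p = 0.609), -0.0324 without day 24 (adjusted p = 0.033) and 0.0583 over days 12 to 24 alone (adjusted p = 0.0108). The gene gst-9 had the same order of means, 0.23 at day 4, -0.52 at day 12 and 0.21 at day 24, and was called lower at days 12 and 14. Of its 2 probes, which correlated at 0.101 over worms, 1 had a called F test (adjusted p = 0.0175) and the other had not (adjusted p = 0.649). These 2, gst-29 and gstk-1 were the 4 members called by the F test and not by the slope.

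None of gst-42, gsto-1, gsto-2 and gsto-3 was called over the slope. The zeta-class gene gst-42, which encodes maleylacetoacetate isomerase of tyrosine breakdown, had a slope of -4.94e-05 ± 0.00809 per day (SE, limma adjusted p = 0.997) and means between -0.62 and -0.34 at all 7 ages. The omega-class gene gsto-1, which is expressed in the intestine, had a slope of -0.0236 ± 0.0149 (adjusted p = 0.253), with medians of -0.11 at day 4 and -0.84 at day 24. Its day 4 and day 8 worms were spread widely, from -3.14 to 1.87 and from -5.15 to 0.61. The omega-class genes gsto-2 (0.0287, adjusted p = 0.0758) and gsto-3 (0.0203, adjusted p = 0.128) did not pass. For gsto-3, 1 of 2 probes rose (0.0445, adjusted p = 0.0053) and the other did not (-0.0042, adjusted p = 0.852).

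Each age against day 4 shows how the balance of calls moved. All 6 comparisons share the day 4 worms. At day 8, 1 member was higher and 5 were lower, or 2.08% and 10.4%, beside 5.21% and 6.14% of all genes (11.4% in both directions). At day 12 the numbers were 1 and 12 (2.08% and 25%, beside 11.5% and 11.2%, 22.7% in all), and at day 14 they were 2 and 10 (4.17% and 20.8%, beside 10.5% and 9.64%, 20.1% in all). At day 16 they were 2 and 9 (4.17% and 18.8%, beside 10.2% and 9.89%, 20.1% in all), and at day 20 4 and 9 (8.33% and 18.8%, beside 9.98% and 10.5%, 20.5% in all). At day 24 they were 3 and 6 (6.25% and 12.5%, beside 8.35% and 8.14%, 16.5% in all). Lower calls were thus a larger share of the members than of all genes at each of the 6 ages, and higher calls a smaller share; that excess itself was not tested. The median difference of the members was -0.19 at day 12 and -0.08 at day 24, and that of all genes 0.01 and -0.00169.

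**Figure D3:**
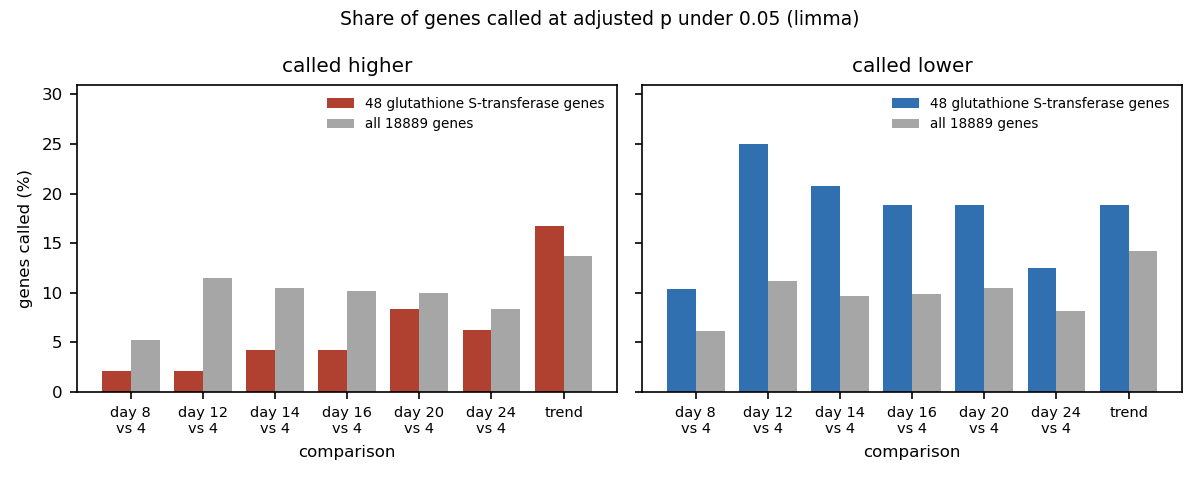
Percent of genes called higher (left) or lower (right) at an adjusted p under 0.05 for each age against day 4 and for the slope over age. Coloured bars are the 48 genes and grey bars all genes tested; at day 12, 25% of the 48 were lower against 11.2% of all genes.

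Day 4 worms set against the pool of the same age show the ratio found with no difference in age. The test sets their mean against a ratio of no change and leaves out the spread of the pool itself. Worm and pool always carried different dyes, so a dye effect and a difference from the pool cannot be told apart. Of the 48 members, gst-2 was higher (0.42 ± 0.13, SE, n = 13, limma adjusted p = 0.0123) and gst-8 lower (-0.46 ± 0.16, adjusted p = 0.0326). That is 4.17% of the members, beside 18.1% of all genes (7.89% higher, 10.2% lower). With quantile normalization 2 were higher and 3 lower, and with array weights 0 and 0.

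Slopes were also read along the genome. Runs were defined as members with at most 3 protein-coding genes between them in the RefSeq gene order of WBcel235. In the run gst-6, gst-7, gst-8 and gst-9 on chromosome II, gst-6 fell (-0.126 per day) and the other 3 were not called, with slopes from -0.0174 to 0.0093. In the run of 9 genes from gst-20 to gst-18, gst-24 (0.166) and gst-20 (0.0333) rose and 7 were not called, among them gst-12 with nearly the slope of gst-20 (0.0332, limma adjusted p = 0.0633). In the run from gst-26 to gst-35, with 8 genes measured, gst-26 and gst-27 fell at one end, gst-35 rose at the other, and 5 between them were not called. The 3 genes gst-3, gst-2 and gst-4 on chromosome IV held 1 rise (gst-3) and 2 falls (gst-2 at -0.0265 and gst-4). Differences between the slopes of neighbours were not tested.

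**Figure D4:**
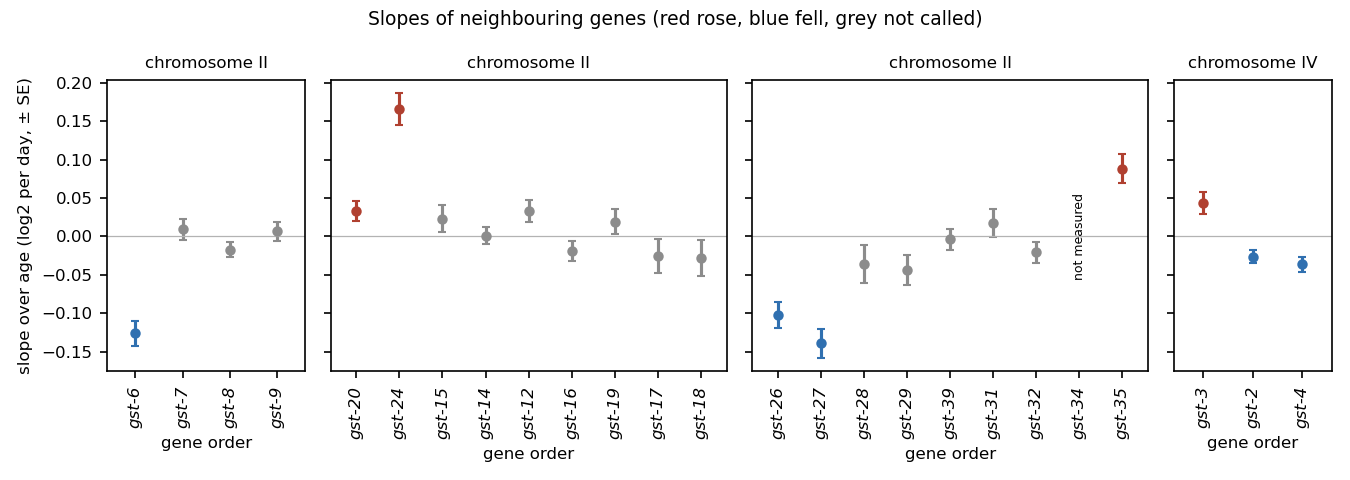
Slope over age in log2 units per day (points, with SE bars) for the 4 runs of neighbouring genes, in gene order. Red points rose, blue points fell and grey points were not called, and gst-26 and gst-27 are adjacent falls.

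Differences between worms of 1 age were shared by some members. For every pair of members, the deviations of all worms from the mean of their age were correlated, with missing deviations set to 0. Permutation p-values came from 100000 permutations of worms within ages and were adjusted over 1275 pairs, which include gcs-1, skn-1 and an intestinal marker mean. Of 1128 pairs of members, 100 correlated positively and 8 negatively by Pearson's r. The weakest positive r called was 0.247, which 12.4% of member pairs and 4.58% of pairs of a member with any other gene reached. The weakest negative one was -0.271, reached by 0.709% and 2.58%. The median r was 0.0704 and 0.00428. A correlation of 0.5 or more was found in 0.355% of member pairs and in 0.194% of pairs of a member with any other gene. Near-identical transcripts can share a probe's signal, and probe sequences were not used here.

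The 2 closest pairs were neighbours in the genome. The genes gst-26 and gst-27 correlated with Pearson's r = 0.734 and Spearman's rho = 0.724 (all worms, permutation p = 1e-05 for both, the smallest that can be given, adjusted p = 0.00051 and 0.000797). Within single ages r lay between 0.493 and 0.914, and without the 2 worms farthest from the median of gst-26 it was 0.706. Of all other genes, 0.00529% correlated as highly with gst-26 and 0.0265% with gst-27, gst-27 and gst-26 themselves counted. For gst-7 and gst-8, r was 0.734 and rho 0.719 (same p), from 0.6 to 0.943 within ages and 0.729 without 2 worms. Neither gst-7 nor gst-8 was called over age by the slope or the F test.

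**Figure D5:**
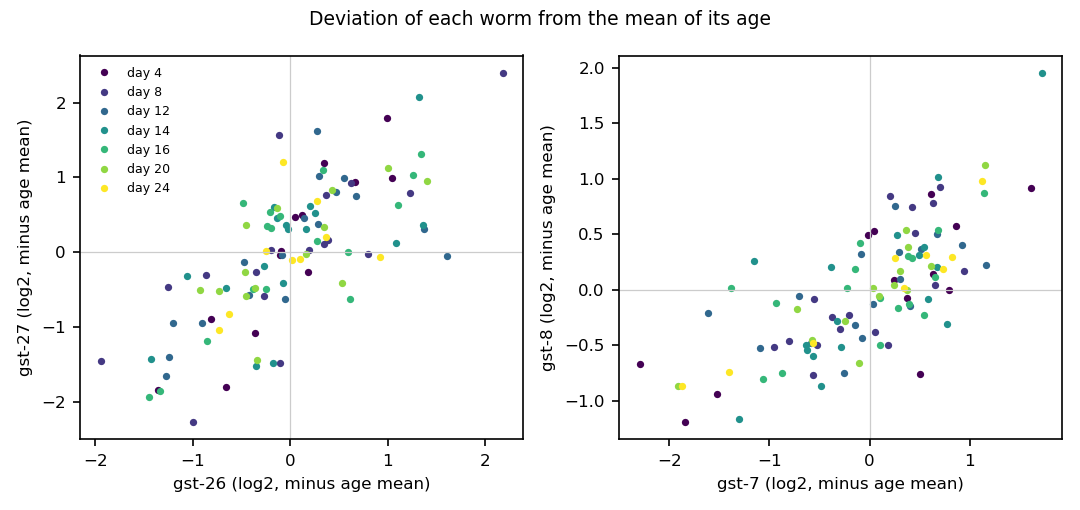
Deviation of each worm from the mean of its age, in log2 units, for gst-27 against gst-26 (left) and gst-8 against gst-7 (right). Each point is 1 worm, coloured by age; Pearson's r is 0.734 in both panels.

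The next 3 pairs were not neighbours. For gstk-1 and gst-27, r was 0.548 and rho 0.503 (permutation p = 1e-05 for both, r of 0.511 without 2 worms). For gst-5 and gst-1 these were 0.544 and 0.466 (p = 1e-05 for both, 0.5 without 2 worms), and for gst-30 and gst-5 0.499 and 0.441 (p = 1e-05 for both, 0.418 without 2 worms). All 5 pairs were positive in each of the 7 ages. The genes gst-5 and gst-1 thus varied together between worms of 1 age. Both had their lowest mean at day 12 (-0.171 for gst-5 and -0.855 for gst-1). Their calls against day 4 differed, with gst-5 higher at days 20 and 24 and gst-1 lower at days 12, 14 and 16.

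Some members varied between worms together with a mean of intestinal markers. The markers were averaged without scaling, so those that vary most between worms weigh most. Single markers were not correlated with the members. Against the mean of 11 intestinal markers, 10 members correlated positively and 2 negatively, led by gst-13 (r = 0.679, rho = 0.659, all worms, permutation p = 1e-05 for both, adjusted p = 0.00051 and 0.000797) and gst-27 (r = 0.643, rho = 0.63, same p). Then came gst-26 (0.507 and 0.534) and gst-6 (0.489 and 0.484), both with p = 1e-05 for each measure. Without the 2 worms farthest from the median of the gst gene, r was 0.65, 0.624, 0.489 and 0.506 for these 4, and within every age it was positive. The weakest of the 10 had an r of 0.313, which 6.93% of all genes other than the markers reached, beside 20.8% of the members. The 2 negative ones were gst-25 (-0.324 and -0.335, permutation p = 0.00072 and 0.00071) and gst-43 (-0.289 and -0.265, permutation p = 0.00389 and 0.00826), or 4.17% of the members beside 6.46% of all genes. For gst-43 only r passed (adjusted permutation p = 0.0424, and 0.0816 for rho). For gsto-1, which is not counted here, only rho passed (adjusted permutation p = 0.027, and 0.109 for r). The rising genes gst-20 (0.426 and 0.454, permutation p = 4e-05 and 1e-05) and gst-24 (0.313 and 0.309, permutation p = 0.00205 and 0.00228) were among the 10. For gst-4 it was not called. The intestinal marker mean itself was -0.66 ± 0.81 at day 4, -0.73 ± 0.83 at day 8, -0.89 ± 0.91 at day 12 and -1.54 ± 0.86 at day 24 (SD), and its part in these changes was not tested. Its similar values at days 4 and 8 cover markers that went opposite ways, 2 up and 2 down.

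The gene gcs-1 encodes the catalytic subunit of the first enzyme of glutathione synthesis and is a SKN-1 target. With it, 5 members correlated by r, all positively. Of these, gst-39 and gst-1 did not pass by rho (adjusted permutation p = 0.0552 for both). For gst-8 rho alone passed (adjusted permutation p = 0.0332, and 0.0808 for r). The weakest of the 5 had an r of 0.289, which 6 of 48 members (12.5%, gsto-2 among them without a call) and 6.06% of all genes reached. The closest was gst-23 (r = 0.39, rho = 0.357, all worms, permutation p = 0.00011 and 0.00052, adjusted p = 0.00292 and 0.0127, r of 0.384 without 2 worms). With skn-1 itself, 0 of 48 members were called. The permutation p was 0.00623 for r and 0.00345 for rho at the closest, gst-39 (r = 0.256, rho = 0.288, adjusted p = 0.0582 and 0.0453, 0.235 without 2 worms), so the rank measure alone passed for that gene.

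Genes around the transferases were read from short lists. Of 7 genes of glutathione synthesis and reduction, 0 rose and 1 fell over the slope (median slope 0.00534 per day, beside 0.000176 for all genes). It was the glutathione synthetase gene gss-1 (-0.019, limma adjusted p = 0.0421), while gcs-1 was not called. Of 8 glutathione peroxidase genes, gpx-1 rose (0.0662) and gpx-7 (-0.0857) and gpx-6 (-0.0549) fell, with a median of -0.00962. Of 8 MRP transporter genes, mrp-2 and mrp-5 rose (0.207 and 0.0572) and mrp-4 fell (-0.0573), with a median of 0.0109. The means of mrp-2 were 0.06 ± 0.87, 0.34 ± 0.56, 2.11 ± 1.45 and 3.60 ± 1.08 at days 4, 8, 12 and 24 (SD). Of 6 CDR genes, whose proteins have a related fold, 1 rose (cdr-4, 0.0603) and 0 fell, with a median of -0.0114.

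Of 15 genes encoding regulators of transferase expression, 3 rose and 1 fell (median 0.0104). The p38 kinase gene pmk-1 rose by 0.078 per day and its upstream kinase gene sek-1 by 0.0394, daf-16 by 0.0175, and the nuclear receptor gene nhr-8 fell (-0.0518). For skn-1 the slope was 0.0142 ± 0.00679 (SE, limma adjusted p = 0.112). Of 12 SKN-1 dependent detoxification genes outside the family, gcs-1 again among them, dhs-8 (0.11) and ugt-13 (0.0926) rose and alh-5 (-0.0722) fell, with a median of 0.0148. These lists hold from 6 to 15 genes each, and the shares called, from 14.3% to 37.5%, lie on both sides of the 27.8% of all genes.

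Tissue markers moved with age too. Over the slope, 0 rose and 4 fell of 11 intestinal markers (median -0.025 per day) and 0 and 7 of 12 oocyte and germline markers (-0.0435). The counts were 0 and 3 for 10 body wall muscle markers (-0.0128). They were 3 and 2 for 10 hypodermal markers (0.0212) and 4 and 0 for 10 neuronal markers (0.0204). Falls were thus 36.4%, 58.3%, 30%, 20% and 0% of these lists in turn, beside 14.2% of all genes. Rises were 0%, 0%, 0%, 30% and 40%, beside 13.7%. From day 8 to day 12, when gst-6, gst-10 and gst-4 fell, 0 of the 12 germline markers rose and 9 fell, or 75%, beside 7.83% of all genes that fell in this step. In the same step 3 hypodermal markers rose and 0 fell, 1 neuronal marker rose and 0 fell, 1 intestinal marker rose and 2 fell, and 0 muscle markers rose and 2 fell. Of the 6 CDR genes, 0 rose and 3 fell (50%). Rises were 30% of the hypodermal, 10% of the neuronal and 9.09% of the intestinal markers, beside 7.76% of all genes. Falls were 18.2% of the intestinal and 20% of the muscle markers, beside 7.83%. The germline marker mean went from 0.19 ± 0.39 to -0.81 ± 0.66 (SD, n = 17 each), and its part in these falls was not tested. As a ratio to the pool gives no level, the markers show change and not presence.

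The spread between worms was itself fitted over age. Of 48 members, 0 had a called change in the absolute deviation from the age mean by limma, beside 3.41% of all genes (3.21% narrower), and 9 had an unadjusted p under 0.05. Of these 9, 3 had a wider spread with age (gst-5, gst-33 and gst-39) and 6 a narrower one, led by gst-10 (-0.0208 per day, adjusted p = 0.0539) and gsto-1 (-0.0308, adjusted p = 0.0813). The unadjusted count was not taken over all genes, so it cannot be compared with the whole table. With quantile normalization 1 member was called narrower.

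Of the 17 slopes called, 7 were called whichever age was left out: gst-24, gst-5, gst-35, gst-27, gst-6, gst-13 and gst-10. The other 10 lost their call without at least 1 age. Rises numbered 4 without day 8 and 5 without day 20, and falls numbered 5 without day 4. Those lost without day 4 were the falls of gst-26, gst-36, gst-2, gst-4 and gst-44 and the rises of gst-40 and gst-20, while gst-29 was called as a fall (-0.078 per day, limma adjusted p = 0.0165). Those lost without day 8 were gst-30, gst-3, gst-38, gst-20, gst-4 and gst-44, and without day 20 gst-30, gst-40 and gst-3. Without day 24, gst-38 and gst-20 were lost, and gst-20 was also lost without day 14 or day 16. Over days 12 to 24 alone, 3 members rose (gst-5, gst-9 at 0.0692 and gst-1) and 1 fell (gst-13). The shares of all genes called in these refits are not given here, so the lost calls cannot be read as particular to the family.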

How the data were processed

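Single worms (Cy5) and a common pool (Cy3) were measured on 2-colour arrays after a double round of linear RNA amplification, per the labels' protocols. The table the authors deposited holds log ratios by probe, taken to be on the log2 scale. The authors used limma, per the submitters' processing notes; no source used here gives its version or its correction and normalization steps. A second deposited table was identical (largest difference 0). The median absolute deviation lay between 0.579 and 0.601 on every array. Missing values (0.537%) were left missing in limma. Of 22490 probes, 95.073% matched a RefSeq gene of WBcel235, used for names and gene order only, by sequence name without its splice letter.

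Probes were averaged per gene, and limma 3.58.1 in R 4.3.3 (lmFit, eBayes) was run on all arrays and 18889 genes, with age in days for the slope and age as a factor for the F test and contrasts. Members and gene lists were chosen with earlier results of these data known. Members named in full were the 6 steepest called rises and falls, the largest called change at each age and step, and gst-1, gst-4, gst-10, gst-42, gsto-1 and gstk-1. Of each list, up to 4 genes with the smallest p for the slope were named; gst-9, gst-29, gst-39, gst-23, gstk-2, gsto-2, gsto-3 and skn-1 (and gst-25 and gst-43 in correlations) were added after their values were seen. On simulated data over 18889 genes, the fit recovered 56% of genes given a slope of 0.05 per day and 97% of those given 0.1; a change of 1 was recovered in 33% for day 24 against day 4, 48% for day 8 against day 4 and 59% for day 12 against day 8. Of the calls in these simulations, 6.7% were false for the slope and 9% for day 24 against day 4. For day 8 against day 4 it was 5.3%, and for day 12 against day 8 it was 3.8%. Only 100 genes were changed per size, with normal noise drawn independently for each gene. In the data 27.8% of genes were called over the slope and genes varied together between worms, so these rates need not hold there. Numbers of worms come from labels with no replicate numbers, so worms are not paired.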

Additional observations from a re-analysis of the deposited data

Results flagged for a closer look

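At day 24, the only age with between 4 and 10 worms, 1 worm lay far from the others for 9 of 72 genes examined, by Dixon's gap of that worm divided by the range of the group; chance gives about 1 in 20. Among the transferases, gst-28 had 1 worm at -4.57 with the other 8 between -1.69 and 0.00 (ratio 0.63), gst-3 had 1 at 2.39 with the others between -0.19 and 1.02 (0.531), and gst-44 had 1 at -2.79 with the others between -1.36 and -0.14 (0.538). These were 3 different worms. Among related genes, 1 worm stood high for gpx-7 (ratio 0.698), gpx-6 (0.55) and cdr-1 (0.529), and 1 stood low for mrp-5 (0.501), pmk-1 (0.5) and gpx-4 (0.495). The low worm of mrp-5 and pmk-1 was the same one, the high worm of gpx-7 was the low worm of gpx-4, and the high worm of cdr-1 was the low worm of gst-28.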

How the results depend on the processing

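Of 237 recomputed counts of members, 224 stayed within 1.5 times the reported count. Counts of 0 that stayed at 0 are among the 224, as for every step between successive ages after day 12. Those say nothing about how far the reported calls held. Rises over the slope (8) numbered 4 without day 8, 5 without day 20 and 3 over days 12 to 24 alone; falls (9) numbered 5 without day 4 and 1 over days 12 to 24 alone. With quantile normalization, higher members at day 14 against day 4 numbered 1 (2 as reported), narrower spreads 1 (0), and day 4 worms against the pool 2 higher and 3 lower (1 and 1), against 0 and 0 with array weights. Without 6 arrays of limma weight under 0.6, a setting chosen after seeing the data, higher members numbered 2 at day 8 (1) and 4 at day 16 (2). Of 488 recomputed values of single members and pairs, 5 changed sign where the reported or the recomputed value was called: gst-1 (0.0583), gst-2 (0.0116), gst-4 (0.0208) and gst-36 (0.0125) over days 12 to 24 alone and gst-36 (0.0116) without day 4. A further 35 lost their call and 6 gained one, counted apart from the values that changed sign. No called slope changed sign under quantile normalization, median centring, array weights, the median over probes, a filter on missing values or robust eBayes. A further 14 sign changes had no call in either setting, 7 of them in the slope of gst-42, 3 in gst-9, 2 in gst-1 and 1 each in gst-29 and gstk-1. Fewer ages mean fewer worms, and the shares of all genes called in those refits are not given here. The cause was otherwise not tested. No paired analysis was possible because the labels carry no replicate numbers. Signal over background was not used here.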
